A study of Mus musculus with 12 samples.

Results

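The transcripts described here are those of 9 amino acid transporter chains and of the alanine transaminase gene Gpt2 in the 2 somatic cell types of the mouse ovarian follicle. They were chosen by gene symbol (Slc38a1, Slc38a2, Slc38a3, Slc38a4, Slc7a5, Slc7a6, Slc7a11, Slc3a2, Slc1a5 and Gpt2), and all 10 are among the 26382 genes present in both deposited tables. The RNA came from mural granulosa cells (MGCs), which line the follicle wall, and from cumulus cells, which surround the oocyte. Both were collected 2 h post-hCG, human chorionic gonadotropin standing in for the luteinizing hormone surge. There were 3 libraries for each cell type labelled Control and 3 for each labelled Sphk1/2 knockout, 12 in all. The study names these groups wild-type (WT) mice, which its methods give as C57/BL6, and Sphk1/2gc−/− mice. The latter carry Sphk1−/−; Sphk2 fl/fl; Fshr-Cre, that is, they lack sphingosine kinase 1 in every cell and lose floxed exons 4 and 6 of Sphk2 where the follicle-stimulating hormone receptor promoter drives Cre, in granulosa cells. The methods describe females of 21 to 23 days that receive 5 IU eCG (equine chorionic gonadotropin) and 5 IU hCG 48 h later, and WT mice that were purchased. They do not say whether the WT mice were littermates of the knockouts. Nothing states whether the libraries of a group came from separate animals or pools, so the p-values measure the spread between these libraries.

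The oocyte takes up several amino acids poorly on its own, among them alanine, and receives them from cumulus cells through gap junctions at the tips of fine projections. Sodium-coupled carriers of the Slc38 family bring small neutral amino acids into the cumulus cell, and Slc38a3 is known as a transcript that the oocyte raises in cumulus cells. The Slc7 light chains exchange amino acids across the membrane and reach it only when bound to the heavy chain encoded by Slc3a2. Gpt2, the mitochondrial alanine transaminase, makes alanine and α-ketoglutarate from pyruvate and glutamate, or the reverse.

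Values are FPKM, fragments divided by exon length in kilobases and by library size, which allows levels of different genes to be compared per length. Multiplied by exon length they gave whole reads for 90.6% to 92.1% of the values above 0, within 0.02 reads, and 16100365 to 19761604 reads per library. Sphk1 was at 0.460 to 1.88 FPKM in the WT MGC libraries and at 0.104 to 0.557 in their knockout counterparts, so that the genotypes overlapped through WT library 3, the lowest WT library. In cumulus cells it was not lower in the libraries labelled Sphk1/2gc−/−, at 0.0778, 0.456 and 0.557 FPKM against 0.0699 to 0.0954 FPKM in WT. Library 1 of the labelled knockout lay within the WT range and libraries 2 and 3 above it. These values rest on few reads, 7, 43 and 51 in the labelled knockouts and 7, 6 and 8 in WT. Sphk2, whose value also covers the exons that are not floxed, overlapped between genotypes in both cell types. The study does report PCR of the alleles, and SphK2 protein loss in granulosa cells of eCG-primed mice by immunofluorescence and western blotting. It does not state what transcript the Sphk1 null allele leaves, so the Sphk1 values do not settle the labels. Genotypes are therefore given below as labelled, for WT MGC library 3 as for the cumulus libraries. The cell type labels were also checked. The cumulus-enriched Amh was at 0.102 to 2.16 FPKM in libraries labelled cumulus against 87.3 to 226 in MGCs, and Slc38a3 went the same way. Of the cumulus markers reported here, Has2 was higher in WT cumulus cells than in WT MGCs (1.73 on the log2 scale) and 4 were lower, against the label (Amh, Slc38a3, Tnfaip6 at −2.27 and Npr2 at −1.80). Of the 7 mural granulosa markers, 6 were lower in WT cumulus cells and 0 higher, where 52.5% and 24.1% of all genes were. Lower there too were 5 of 6 granulosa, 9 of 10 oocyte and 4 of 4 theca markers. The same held for 7 of 7 leukocyte, 6 of 6 endothelial and 3 of 4 red blood cell markers. Being lower was thus not particular to the mural list and does not settle the label. MGC Sphk1/2gc−/− library 3 stood apart, since its correlation with the remaining 5 of that cell type was 0.912 to 0.939 (log2(FPKM + 1) across 15279 genes) and that between knockout libraries 1 and 2 was 0.986. WT cumulus library 3 listed 27541 genes above 0, against 18788 to 19289 in the other cumulus libraries.

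The genes lie on 6 chromosomes of GRCm38 in GENCODE M21, and no exon of theirs overlaps another gene. Slc38a1 (chr15:96571418-96642913), Slc38a2 (chr15:96687392-96699730) and Slc38a4 (chr15:96994820-97055956) follow each other on the minus strand of chromosome 15. Slc38a3 is at chr9:107650634-107669530, Slc7a11 at chr3:49892526-50443614, Slc3a2 at chr19:8706882-8723369 and Slc1a5 at chr7:16781340-16798274. Gpt2 (chr8:85492576-85527560), Slc7a6 (chr8:106168857-106198706) and Slc7a5 (chr8:121881150-121907694) share chromosome 8.

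The first comparison asks which of these transcripts differ with Sphk1/2 genotype in cumulus cells. Gpt2, the cystine transporter Slc7a11, and the carriers Slc38a3 and Slc38a4 were higher in the libraries labelled Sphk1/2gc−/−, that is 4 of 10 (limma on log2(FPKM + 1), adjusted p of 0.05 or less), where 9.66% of 12205 genes tested were higher. None of the 10 was lower, where 12.7% of genes were, and at an unadjusted p under 0.05 the counts were 5 higher and 0 lower. The median log2 fold change of the 10 was 0.46, beside −0.056 over all genes tested. The 10 were chosen with earlier results of these data known. Their counts and medians, here and below, therefore do not test the set against all genes. Across all genes 1179 were higher and 1546 lower, a split that became 1397 and 1189 when libraries were rescaled to a common median ratio. From bulk RNA, fewer cells of a type and less RNA per cell cannot be told apart.

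Gpt2 was at 3.07, 4.34 and 4.73 FPKM in the WT cumulus libraries and at 13.5, 21.2 and 24.3 FPKM in those labelled Sphk1/2gc−/−. The genotypes did not overlap, and the lowest knockout library was well above the highest WT library. The means were 4.05 ± 0.868 and 19.7 ± 5.54 FPKM (SD, n = 3), which is 2.01 on the log2(FPKM + 1) scale (SE 0.24, adjusted p = 0.00171 in limma). Of the 10 transcripts it had the largest change, and it passed the test in each of the 6 fits that left out 1 library, with a log2 fold change of 1.85 to 2.25.

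Slc7a11 encodes the light chain of the cystine-glutamate antiporter, which feeds cysteine into glutathione. It was at 1.36, 1.63 and 3.50 FPKM in the WT cumulus libraries and at 5.78, 10.1 and 9.62 FPKM in those labelled Sphk1/2gc−/−. Again no knockout library fell within the WT range, although WT library 3 was above the other WT libraries. The rise was 1.61 on the log2 scale (SE 0.29, adjusted p = 0.00717 in limma), and without any single library it stayed between 1.43 and 1.90 and passed the test.

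Since Gpt2 and Slc7a11 had the 2 largest rises, their upstream sequence is shown, the 250 bases before the start of transcription in the RefSeq table (GRCm38.p6). The search covered both strands for the C/EBP-ATF response element TGATGNAA, through which ATF4 acts on genes of amino acid supply, the antioxidant response element TGACNNNGC and the cAMP response element TGACGTCA. The lines give Slc7a11 (chr3:50443614-50443863, minus strand) and Gpt2 (chr8:85492326-85492575, plus strand), 5′ to 3′, with capitals for the C/EBP-ATF response element.
Slc7a11: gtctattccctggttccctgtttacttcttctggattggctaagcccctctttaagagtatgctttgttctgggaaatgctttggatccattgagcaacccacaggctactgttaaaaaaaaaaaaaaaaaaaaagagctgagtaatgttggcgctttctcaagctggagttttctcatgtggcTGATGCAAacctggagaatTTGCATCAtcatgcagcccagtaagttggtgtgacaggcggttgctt
Gpt2: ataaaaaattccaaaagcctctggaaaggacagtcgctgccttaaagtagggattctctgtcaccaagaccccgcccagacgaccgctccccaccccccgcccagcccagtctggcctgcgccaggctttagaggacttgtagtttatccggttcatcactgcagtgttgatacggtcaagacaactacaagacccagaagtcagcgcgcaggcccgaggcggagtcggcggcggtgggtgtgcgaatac
The window of Slc7a11 held 2 copies of TGATGNAA, from −66 to −59 on the strand shown and from −47 to −40 as the reverse complement. At least 1 copy stood in 3.45% of 32851 promoter windows of that length. The Gpt2 window held none of the 3 motifs. Of the 6 members with an entry, Slc38a2 (−27 to −19) and the downstream of the starts listed for Slc7a6 (−68 to −60) held the antioxidant response element, present in 10.2% of windows, and Slc38a4 and Slc3a2 held none of the motifs. The cAMP response element, in 1.55% of windows, was in no member's window. The matches are letters only and were not tied to binding.

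Slc38a3, a glutamine and histidine carrier of system N, was at low levels in cumulus cells. It was at 0.341, 1.66 and 1.01 FPKM in the WT libraries, from 29, 157 and 94 reads, and at 2.54, 2.18 and 3.23 FPKM in those labelled Sphk1/2gc−/−, from 252, 227 and 327 reads. The ranges did not overlap. The rise of 0.91 on the log2 scale (SE 0.25, adjusted p = 0.0350 in limma) lost its call without WT library 1 or 3 or knockout library 2 or 3, with adjusted p between 0.0610 and 0.117, and with a pseudocount of 0.1 FPKM it was 1.51 with an adjusted p of 0.0503. Slc38a4, which carries small neutral amino acids, was at 4.79, 5.45 and 9.83 FPKM in the WT libraries and at 14.3, 10.8 and 13.3 FPKM in the others. WT library 3 came close to the lowest knockout library without reaching it. Its rise was 0.89 on the log2 scale (SE 0.25, adjusted p = 0.0357 in limma), and it passed the test only in the fit without WT library 3 among the 6 that left out a library (adjusted p = 0.0108 there and 0.0573 to 0.120 in the others).

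Slc3a2, the heavy chain, was at 47.4, 60.4 and 74.5 FPKM in WT cumulus cells and at 98.6, 86.5 and 84.2 FPKM in the labelled knockouts. The ranges did not overlap, yet the log2 fold change of 0.57 (SE 0.19) had an adjusted p of 0.0618 in limma. It passed after rescaling by the median ratio (adjusted p = 0.0335), after GC correction (0.0444), in limma-voom on recovered reads (0.0333) and without WT library 3 (0.0382). For the other 5 members the genotypes overlapped in cumulus cells. The system A carrier Slc38a2, which is known to be induced when amino acids are scarce, was at 35.4 to 49.7 FPKM in WT and 45.6 to 71.2 in the labelled knockouts (log2 fold change 0.34, 95% interval −0.15 to 0.83). Its neighbour and system A relative Slc38a1 was at 15.4 to 23.8 and 18.3 to 22.5 FPKM (0.026, −0.41 to 0.47), and the cationic and neutral amino acid exchanger Slc7a6 at 19.8 to 23.5 and 19.6 to 24.9 FPKM (0.021, −0.33 to 0.37). Slc1a5, a neutral amino acid exchanger that carries glutamine, was at 1.32 to 1.90 and 1.39 to 2.41 FPKM (0.16, −0.25 to 0.57). Slc7a5, which takes up leucine and other large neutral amino acids, was nearly level in WT at 10.7, 10.7 and 9.64 FPKM and spread over 3.22, 7.29 and 11.4 FPKM in the labelled knockouts (−0.58, −1.37 to 0.21).

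**Figure D1:**
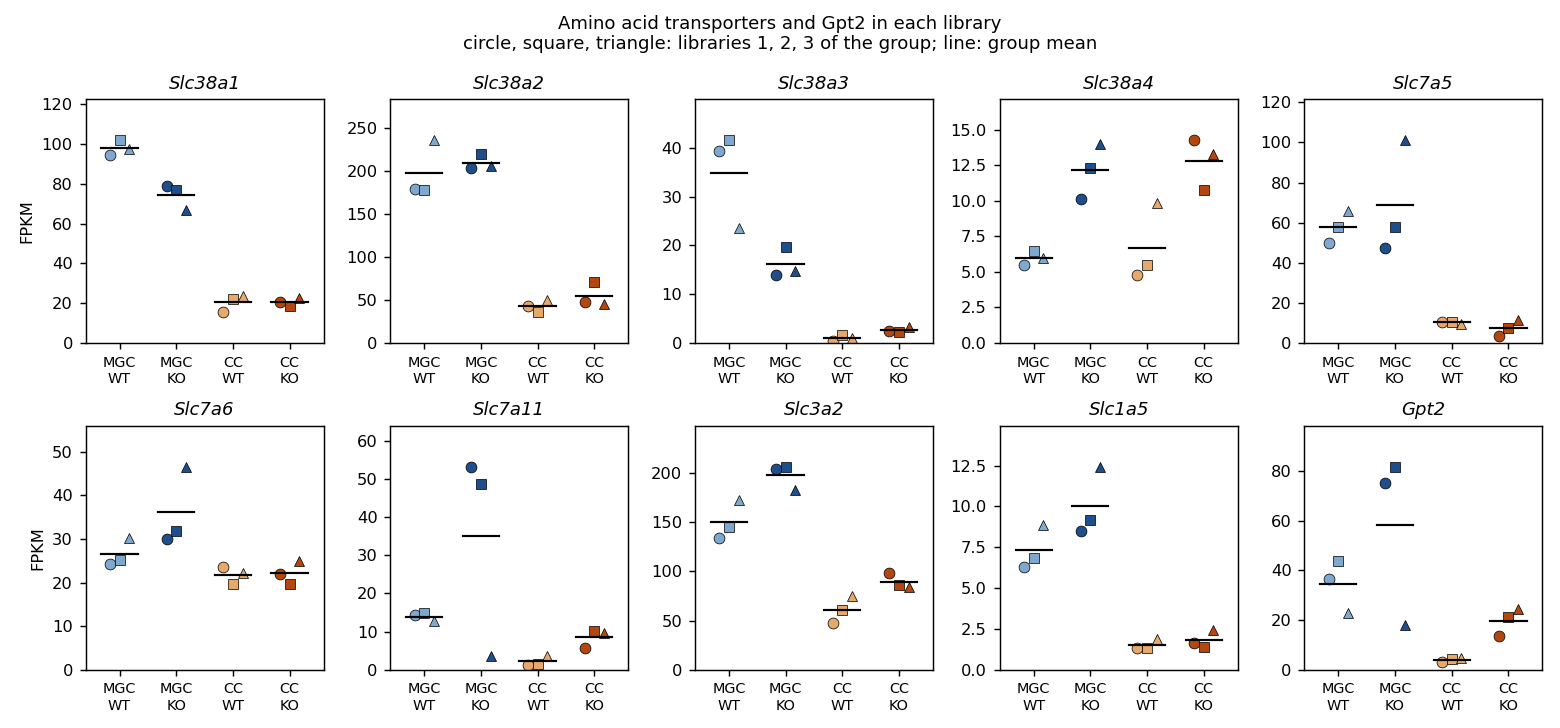
FPKM (y axis, from 0, scaled per gene) of the 10 transcripts in each of the 12 libraries, grouped by cell type and genotype on the x axis; symbols mark library numbers 1 to 3, KO is Sphk1/2gc−/− and lines are group means. Gpt2 and Slc7a11 are higher in the knockout cumulus libraries, and in MGC knockout library 3 (triangle) both are below the other knockout libraries.

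In MGCs the same question gave no call over all 6 libraries. None of the 10 was higher, where 0.00654% of 15279 genes were, and none was lower, where 0.0327% were. At an unadjusted p under 0.05 limma had 2 higher and 2 lower, and limma-voom called 0 of the 7 members whose whole reads could be recovered. The median log2 fold change of the 10 was 0.40, beside −0.0034 over all genes. In libraries 1 and 2 of each genotype alone, which leaves out the Sphk1/2gc−/− library that stood apart and the WT library of its number, 6 of 10 were higher, where 5.07% of 15433 genes were, and 2 were lower, where 11.0% were. With 2 libraries a group this rests on a spread that limma borrows across genes. Without Sphk1/2gc−/− library 3 alone, 2 of 10 were higher, Slc7a11 (adjusted p = 0.00346) and Slc38a4 (0.0486), where 1.10% of 15215 genes were, and 0 were lower, where 0.730% were.

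In Slc7a11 and Gpt2, Sphk1/2gc−/− library 3 lay below the WT range while libraries 1 and 2 lay above it. Slc7a11 measured 14.2, 14.8 and 12.7 FPKM in the WT libraries, whereas the knockout libraries had 53.1, 48.6 and 3.54 FPKM. Libraries 1 and 2 were above every WT library and library 3 below every WT library. The log2 difference was 0.63 (95% interval −1.51 to 2.77, adjusted p = 0.882 in limma) over 6 libraries and 1.74 (1.56 to 1.92, adjusted p = 0.00172) in libraries 1 and 2. For Gpt2 the WT libraries had 36.7, 43.8 and 22.7 FPKM and the knockout libraries 75.3, 81.7 and 17.8 FPKM. Here too library 3 was the lowest of its group, in WT as in the knockout. Its log2 difference was 0.52 (−0.85 to 1.90, adjusted p = 0.829 in limma) over 6 libraries and 0.95 (0.68 to 1.22, adjusted p = 0.0111) in libraries 1 and 2. Without knockout library 3 alone it was 1.22 and missed the threshold (adjusted p = 0.0986). The cumulus expansion transcripts moved with them, Tnfaip6 being at 1605, 1385 and 144 FPKM and Ptx3 at 114, 103 and 9.08 FPKM in knockout libraries 1 to 3 (WT means 858 and 49.95 FPKM). The steroidogenic Star was also lowest in library 3, at 436, 395 and 47.1 FPKM, but all of these were below its WT mean of 830 FPKM. Their part in the result was not tested.

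Slc38a3 and Slc38a4 separated the genotypes in all 6 MGC libraries, in opposite directions. Slc38a3 measured 39.4, 41.6 and 23.6 FPKM in WT but 13.9, 19.8 and 14.6 FPKM in the knockout. That is −1.04 on the log2 scale (SE 0.25, adjusted p = 0.270 in limma), and −1.24 (adjusted p = 0.0175) in libraries 1 and 2. Slc38a4 measured 5.48, 6.44 and 5.94 FPKM in WT but 10.1, 12.3 and 14.0 FPKM in the knockout, which is 0.91 on the log2 scale (SE 0.16, adjusted p = 0.152 in limma) over 6 libraries and 0.81 (adjusted p = 0.0246) in libraries 1 and 2. Slc38a1 also separated the genotypes, at 94.6, 102 and 97.4 FPKM against 78.7, 76.8 and 66.9 FPKM (−0.40, SE 0.12, adjusted p = 0.375, and −0.33, adjusted p = 0.0331, in libraries 1 and 2). So did Slc3a2, at 134, 145 and 173 against 204, 206 and 183 FPKM (0.40, SE 0.14, adjusted p = 0.481, and 0.56, adjusted p = 0.0129, in libraries 1 and 2).

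Slc7a6 measured 24.2, 25.1 and 30.2 FPKM in WT against 30.1, 31.8 and 46.5 FPKM in the knockout, and Slc1a5 at 6.26, 6.81 and 8.88 against 8.52, 9.15 and 12.4 FPKM. In both, library 3 was the highest of each genotype and the ranges met, with log2 fold changes of 0.41 and 0.40 over 6 libraries and 0.32 and 0.38 in libraries 1 and 2 (adjusted p of 0.0372 and 0.0464 there). Slc7a5 was at 49.9 to 65.7 FPKM in WT and at 47.5, 57.8 and 101 FPKM in the knockout, and its log2 fold change was 0.18 (−0.48 to 0.85) over 6 libraries and −0.035 in libraries 1 and 2. Slc38a2 was at 178, 178 and 235 against 203, 219 and 205 FPKM, within the WT range throughout (0.096, −0.27 to 0.46).

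**Figure D2:**
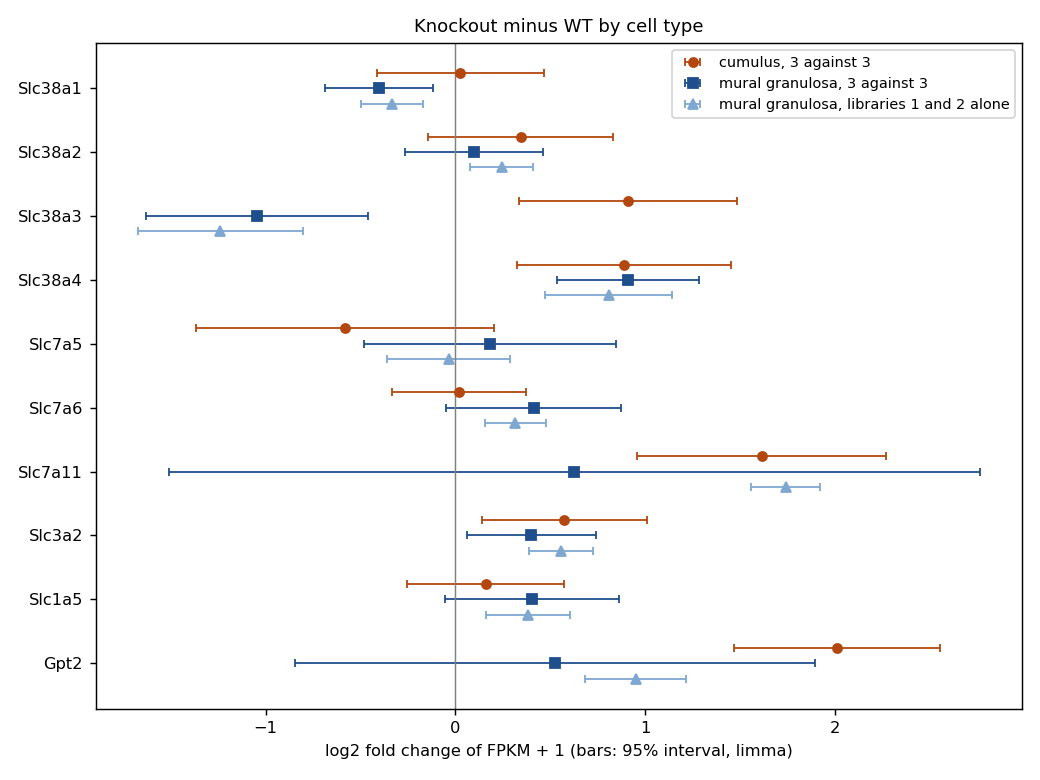
Log2 fold change of FPKM + 1 (x axis), Sphk1/2gc−/− minus WT, for each transcript (y axis) in cumulus cells, in MGCs over all libraries and in MGC libraries 1 and 2 alone; bars are 95% intervals from limma. The MGC intervals of Slc7a11 and Gpt2 span 0 over 6 libraries and lie above 0 in libraries 1 and 2, and Slc38a3 lies on opposite sides of 0 in the cell types.

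Whether the genotype difference itself differed between cell types was tested in a model of all 12 libraries. Of the 10 transcripts, 1 had a larger effect in cumulus cells, where 2.45% of 15869 genes did, and 0 a smaller effect, where 1.48% did (at an unadjusted p under 0.05, 2 and 0 of 10). It was Slc38a3, for which the labelled knockout was higher in cumulus cells and lower in MGCs, with a difference of 1.95 on the log2 scale (SE 0.38, limma adjusted p = 0.0221). In cumulus cells it was higher in 3 of 3 knockout libraries than in any WT library, and in MGCs lower in 3 of 3. The difference was 1.69 to 2.20 without any single library and lost its call without WT MGC library 1 or 2, WT cumulus library 1 or knockout cumulus library 3 (adjusted p of 0.0531 to 0.0700). For Gpt2 the difference was 1.49 (95% interval 0.022 to 2.95, adjusted p = 0.221), and for Slc7a11 0.99 (−1.24 to 3.22) over 12 libraries and −0.13 without the MGC libraries of number 3. For Slc38a4 it was −0.019 (−0.69 to 0.66), and the sign turned under several alternatives.

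The levels of the transcripts in the 2 cell types bear on how cumulus cells supply the oocyte. Together the 10 transcripts summed to 583 to 675 FPKM in WT MGCs and to 150 to 201 FPKM in WT cumulus cells, and to 665 to 764 and 230 to 249 FPKM in the respective Sphk1/2gc−/− libraries. In WT, 8 of 10 were lower in cumulus cells than in MGCs (limma, adjusted p of 0.05 or less), where 52.5% of 15869 genes were lower, and 0 were higher, where 24.1% were. In Sphk1/2gc−/−, 8 of 10 were lower, where 51.3% of genes were, and 0 higher, where 22.0% were. At an unadjusted p under 0.05 the counts were the same, 8 lower and 0 higher in each genotype. The median log2 difference of the members was −2.21 in WT and −1.56 in Sphk1/2gc−/−, beside −0.54 and −0.51 over all genes.

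This difference between the tables moved with base composition. Over 10522 genes the WT difference had a Spearman correlation of −0.306 with exon GC content, with medians of 0.17 for genes under 45% GC and −1.19 for genes of 55% or more. Members ranged from 40.7% (Slc7a11) to 56.7% (Slc1a5). After removal of each library's trend along GC content, an alternative chosen after the data were seen, 5422 genes (34.2%) were higher and 5416 (34.1%) lower in WT cumulus cells, in place of 3820 and 8336. In the knockout 33.2% were then higher and 32.4% lower, in place of 3497 and 8146 genes. The correction also takes out each library's median offset from the other libraries, so a near-even split over all genes was built into it. The WT median over all genes went from −0.54 to −0.012. The shares of the offset and of base composition in the members' corrected values were not separated. Of the members, 7 of 10 were then lower in WT and 5 of 10 in Sphk1/2gc−/−, with 0 higher in either. The cell types were collected and tabulated separately, so cell type and preparation cannot be told apart.

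Slc38a3 had the largest difference, 34.9 ± 9.82 FPKM in WT MGCs against 1.00 ± 0.657 FPKM in WT cumulus cells (SD, n = 3), a log2 difference of −4.18 (95% interval −4.76 to −3.59) and −3.23 after GC correction. No library of cumulus cells came near the MGC range. Gpt2 followed with −2.78 (−2.15 after GC correction), then Slc7a5 with −2.37 (−1.26), Slc7a11 with −2.30 (−2.37), Slc38a1 with −2.23 (−1.71) and Slc38a2 with −2.19 (−2.06). Slc1a5 was at −1.72 (−0.53). Slc3a2 differed by −1.31, which became −0.44 after GC correction and then missed the threshold (adjusted p = 0.0561). Slc38a4 and Slc7a6 were at like levels in both WT cell types, with log2 differences of 0.091 (−0.39 to 0.57) and −0.27 (−0.65 to 0.11). In Sphk1/2gc−/− the differences of Slc38a3 and Gpt2 were −2.22 and −1.29. The call for Gpt2 (adjusted p = 0.0277) was lost without knockout MGC library 1 or 2 or knockout cumulus library 1 (0.10 to 0.118), after rescaling (0.0835) and after GC correction (0.249), when Slc7a6 and Slc3a2 lost theirs too. Slc7a11 was the reverse case, at −1.31 (adjusted p = 0.120) over all libraries and −2.48 (1.15e-05) without knockout MGC library 3.

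Within WT cumulus cells the order by mean FPKM was Slc3a2 (60.8), Slc38a2 (42.6), Slc7a6 (21.8), Slc38a1 (20.4), Slc7a5 (10.3), Slc38a4 (6.69), Gpt2 (4.05), Slc7a11 (2.16), Slc1a5 (1.51) and Slc38a3 (1.00). Neighbours whose libraries overlapped were Slc3a2 with Slc38a2, Slc7a6 with Slc38a1, Slc7a5 with Slc38a4, and the last 4 each with the next. In the cumulus libraries labelled Sphk1/2gc−/−, Slc3a2 and Slc38a2 kept the first places at 89.8 and 54.9 FPKM and no longer overlapped, and Gpt2 rose to 19.7 FPKM, where it overlapped with Slc38a1 and Slc7a6. In WT MGCs Slc38a2 (197 FPKM), Slc3a2 (150), Slc38a1 (98.0) and Slc7a5 (57.8) led without overlap, and Slc38a4 (5.95) was the lowest.

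**Figure D3:**
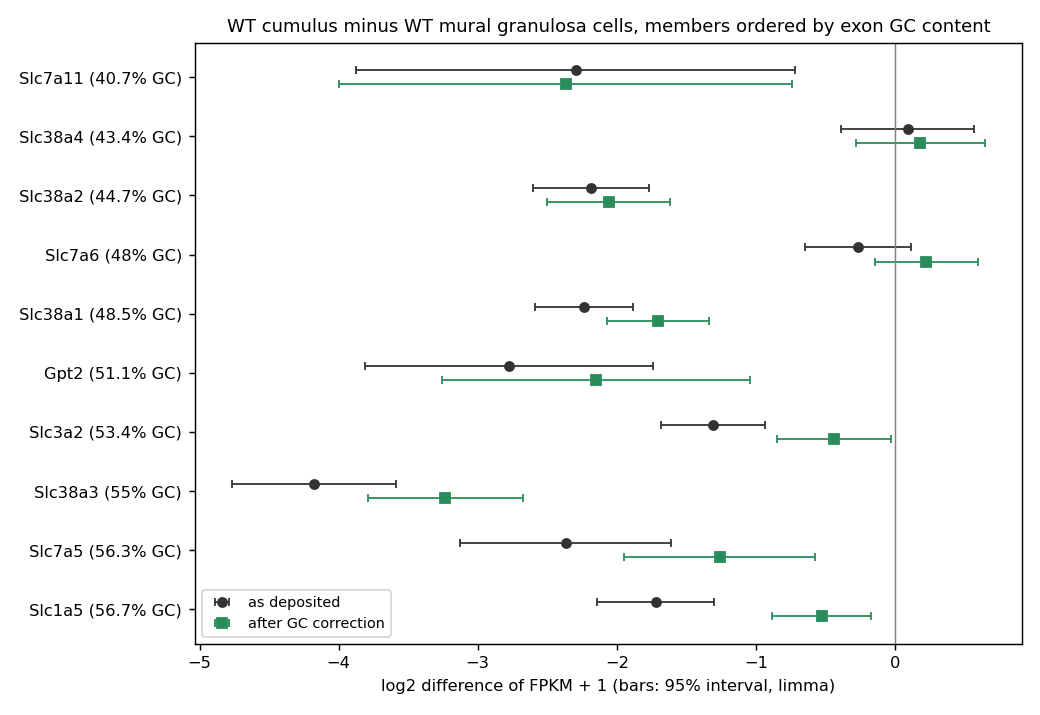
Log2 difference of FPKM + 1 (x axis), WT cumulus cells minus WT MGCs, for each transcript (y axis, ordered by exon GC content, lowest at the top), as deposited and after GC correction; bars are 95% intervals from limma. The correction moves the members of high GC content, such as Slc1a5 from −1.72 to −0.53, and leaves those of low GC content, such as Slc7a11, close to where they were.

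The heavy chain Slc3a2 was set beside the 6 light chains that pair with it, Slc7a5, Slc7a6, Slc7a7, Slc7a8, Slc7a10 and Slc7a11, a grouping chosen after the values were seen. Of these, Slc7a8 carries neutral amino acids of many sizes and Slc7a7 is a relative of Slc7a6. In WT MGC libraries the light chains summed to 584 to 631 FPKM and Slc7a8 made up 82.4% to 84.2% of the sum, so that the ratio of heavy chain to summed light chains was 0.229 to 0.274. In WT cumulus cells they summed to 41.8 to 50.7 FPKM, Slc7a6 made up 43.8% to 51.9% and the ratio was 1.05 to 1.47. In the cumulus libraries labelled Sphk1/2gc−/− the sums were 45.2, 57.5 and 74.9 FPKM, with Slc7a11 at 12.8%, 17.6% and 12.8% of them, against 3.00% to 6.90% in WT. The share of Slc7a5 was 7.13% to 15.2% there, against 19.0% to 25.5% in WT. In MGCs Slc7a11 made up 2.02% to 2.44% in WT and 5.87%, 5.59% and 0.622% in Sphk1/2gc−/− libraries 1 to 3. These shares are of FPKM, not of protein.

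**Figure D4:**
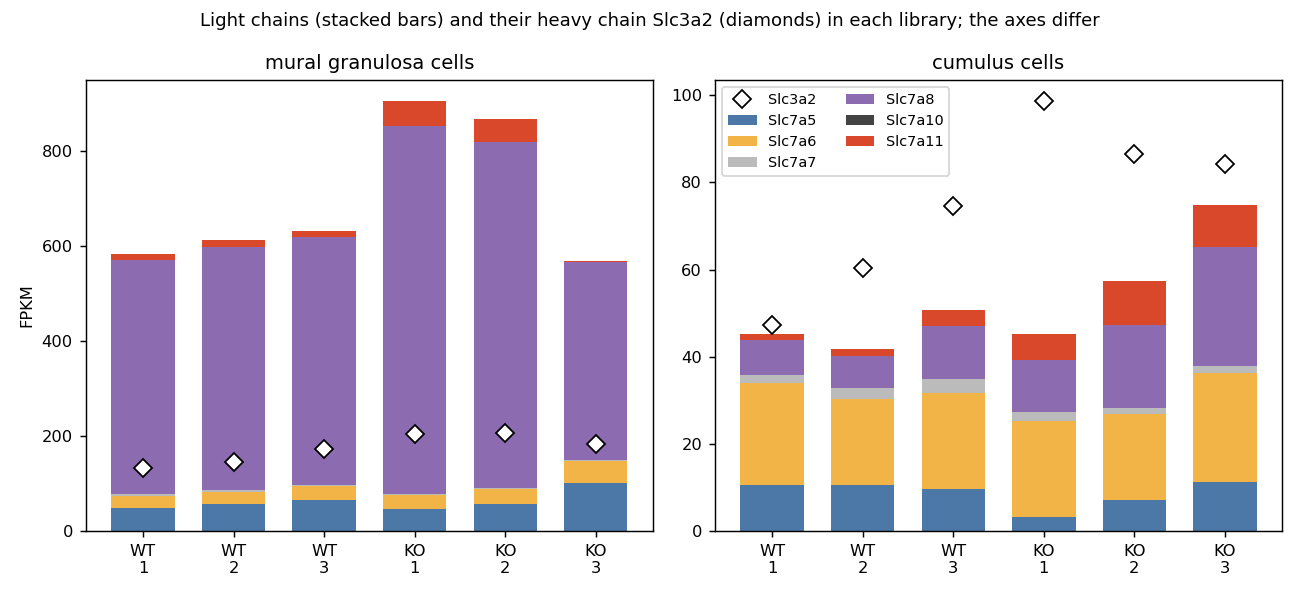
FPKM (y axis, from 0, on different scales) of the light chains as stacked bars and of Slc3a2 as diamonds in each library (x axis, by genotype and library number; KO is Sphk1/2gc−/−). In MGCs the diamonds lie far below the bars, which are mostly Slc7a8, and in cumulus cells they lie above them.

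Among 47 other amino acid transporters, 13 could be tested in cumulus cells, and 4 were higher and 1 lower in the libraries labelled Sphk1/2gc−/−, where 9.66% and 12.7% of all genes were (median log2 fold change 0.19, beside −0.056). Slc6a6, the taurine transporter, measured 34.6, 29.7 and 39.2 FPKM in WT against 61.6, 111 and 134 FPKM in the labelled knockouts (1.48 on the log2 scale, SE 0.28, adjusted p = 0.00894 in limma). No library overlapped, and MGCs showed a like pattern at 82.0 to 84.4 against 135 to 139 FPKM (0.71, adjusted p = 0.115, and 0.70, adjusted p = 0.00592, in libraries 1 and 2). Slc16a10, an aromatic amino acid transporter, was at 2.56 to 3.68 and 6.46 to 8.35 FPKM (1.07, adjusted p = 0.00481), and the light chain Slc7a8 at 7.26 to 12.0 and 12.0 to 27.5 FPKM, where the ranges met (0.98, adjusted p = 0.0486). The cationic amino acid transporter Slc7a1 was at 4.43 to 5.68 and 6.34 to 11.4 FPKM (0.72, adjusted p = 0.0440). Slc6a15, a carrier of branched-chain amino acids and proline, was lower, with 31.7, 25.9 and 33.9 FPKM in WT against 15.2, 7.90 and 11.1 FPKM in the labelled knockouts (−1.38, adjusted p = 0.00583). Its genotype effect in cumulus cells minus that in MGCs was −1.52 (limma adjusted p = 0.0473), as MGCs had 6.00 to 8.45 and 5.88 to 12.0 FPKM.

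In level, 6 other transporters had a mean of at least 10 FPKM in some group. Slc38a5, like Slc38a3 a glutamine carrier of system N, was at 125 to 209 FPKM in all 12 libraries, and so above each of the 10 members in cumulus cells. In WT it was at 136, 151 and 138 FPKM in MGCs and at 156, 176 and 196 FPKM in cumulus cells (log2 difference 0.31, adjusted p = 0.0751), where Slc38a3 was at 0.341 to 1.66 FPKM. Slc7a8 at 417 to 773 FPKM, Slc7a1 at 43.7 to 74.1 FPKM and Slc38a10 at 27.9 to 45.1 FPKM in MGCs were all lower in cumulus cells, with WT log2 differences of −5.68, −3.13 and −3.19. Slc6a15 was higher in WT cumulus cells than in WT MGCs (2.00, adjusted p = 2.69e-05). Over the 23 that could be tested between WT cell types, 1 was higher and 17 lower, where 24.1% and 52.5% of all genes were, with a median of −1.0 beside −0.54. After GC correction 4 were higher and 12 lower, where 34.2% and 34.1% of all genes were, and the median was −0.39.

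**Figure D5:**
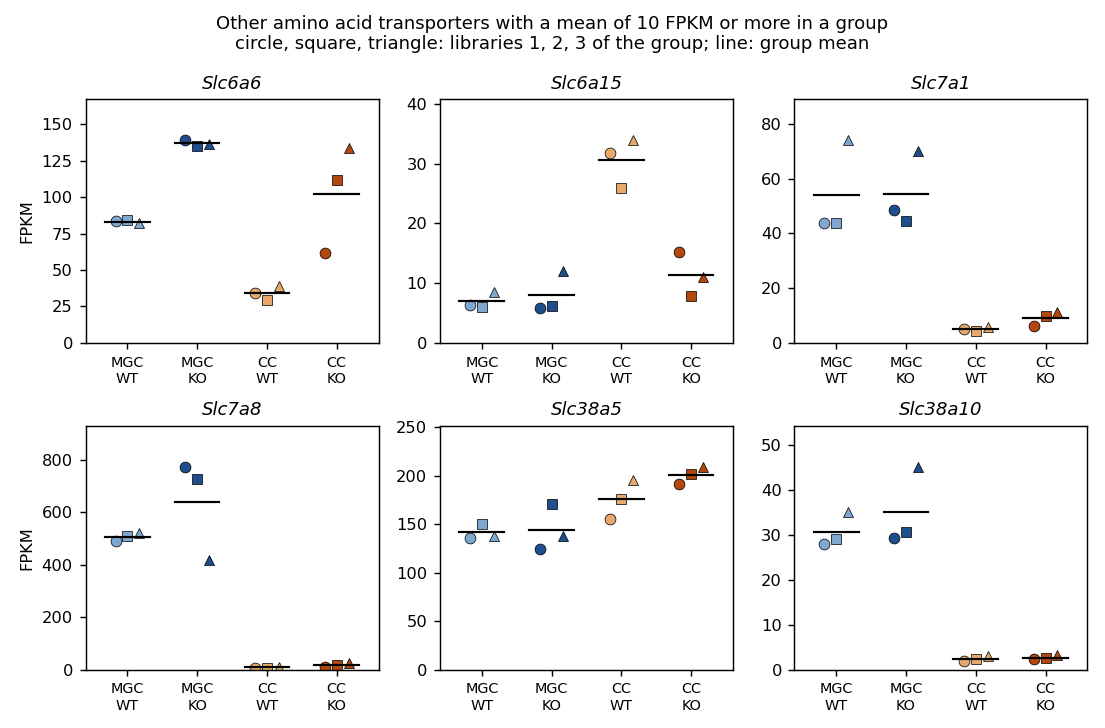
FPKM (y axis, from 0, scaled per gene) of 6 other amino acid transporters in each library, by cell type and genotype (x axis); symbols mark library numbers 1 to 3, KO is Sphk1/2gc−/− and lines are group means. Slc38a5 is at 125 FPKM or more in all 12 libraries, Slc6a6 is higher in knockout libraries of both cell types and Slc6a15 is lower in knockout cumulus libraries.

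Enzymes that use the transported amino acids were counted by list in cumulus cells, where 9.66% of all genes tested were higher and 12.7% lower. These shares stand beside each list count of genotype in cumulus cells from here on, and no list was tested against them. Of 16 tested enzymes of alanine, glutamate and aspartate, 2 were higher and 1 lower in the libraries labelled Sphk1/2gc−/− (median log2 fold change 0.15). Glul, glutamine synthetase, measured 2.45, 2.41 and 3.24 FPKM in WT against 10.4, 11.2 and 11.7 FPKM in the labelled knockouts, without overlap (1.72, SE 0.15, adjusted p = 0.000684). Asns, asparagine synthetase, was at 27.9 to 44.2 and 54.9 to 73.3 FPKM (0.74, adjusted p = 0.0373), and the mitochondrial aspartate transaminase Got2 was lower, at 6.68 to 7.79 and 4.08 to 5.34 FPKM (−0.52, adjusted p = 0.0424). The cytosolic alanine transaminase Gpt stayed at 0.239 to 0.781 FPKM in cumulus cells, below every library of Gpt2. Of 10 tested enzymes of serine, glycine and one-carbon metabolism, 1 was higher and 1 lower, the latter being mitochondrial serine hydroxymethyltransferase Shmt2 at 28.6 to 33.5 and 11.6 to 17.0 FPKM (−1.13, adjusted p = 0.00448).

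Of 14 tested genes of cystine and glutathione metabolism, beside which Slc7a11 stands, 1 was higher and 0 lower (median 0.0028), where 9.66% and 12.7% of all genes were. It was sulfiredoxin, Srxn1, with 23.3, 19.7 and 44.6 FPKM in WT against 61.9, 84.1 and 157 FPKM in the labelled knockouts (1.73, adjusted p = 0.0164). In MGCs Srxn1 went the other way, from 391, 384 and 225 FPKM to 281, 247 and 138 FPKM. Its genotype effect in cumulus cells minus that in MGCs was 2.34 (limma adjusted p = 0.0430). Of 14 tested genes of the ATF4 list, which holds none of the members, 1 was higher (Asns) and 1 lower (Shmt2), both also counted above. The median log2 fold change of this list was 0.34, beside −0.056 over all genes tested. Atf4 itself was at 123 to 215 and 165 to 202 FPKM (0.25, adjusted p = 0.434). Of 21 tested genes of mTORC1 amino acid sensing, 2 were higher and 1 lower (median −0.14), again beside 9.66% and 12.7% of all genes. The higher ones were the Rag GTPase Rragd (0.79, adjusted p = 0.00780) and the Ragulator subunit Lamtor3 (0.54, adjusted p = 0.0344). The lower one was the Ragulator subunit Lamtor1 (−0.61, adjusted p = 0.0276 in limma). Lamtor2 (−0.27), Lamtor4 (−0.57) and Lamtor5 (−0.65) also had negative log2 fold changes, without passing. Of 19 cytosolic aminoacyl-tRNA synthetases 1 was higher, Nars (0.46, adjusted p = 0.04997).

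The route to the oocyte was covered by 11 genes of gap junctions and cell projections, of which 8 could be tested in cumulus cells. None was higher, where 9.66% of all genes were, and 1 was lower, where 12.7% were (median 0.18). Gja1, the main granulosa cell connexin, was at 674 to 865 FPKM in WT and 667 to 818 FPKM in the labelled knockouts (−0.068, adjusted p = 0.784). Over all 6 MGC libraries none of the listed genes passed the test. In MGC libraries 1 and 2 alone, 5.07% of 15433 genes were higher and 11.0% lower. There 4 of 23 other transporters were higher and 2 lower, and of 19 synthetases 3 and 1. Of 17 alanine, glutamate and aspartate enzymes 1 was higher and 1 lower, and of 18 ATF4 list genes 2 and 3. Of 14 cystine and glutathione genes 1 was higher and 5 lower, and of 23 mTORC1 sensing genes 0 and 6. No serine, glycine and one-carbon or gap junction gene passed. Among the calls, Glul (0.59, adjusted p = 0.0134 in limma) was higher and Srxn1 (−0.55, adjusted p = 0.0213) lower.

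Markers of other cells moved with these comparisons. The 11 oocyte markers summed to 42.2 to 104 FPKM in WT MGCs and 31.3 to 121 FPKM in Sphk1/2gc−/− MGCs, but to 4.22 to 7.94 and 2.62 to 2.91 FPKM in the respective cumulus libraries. Of 10 tested, 9 were lower in WT cumulus cells than in WT MGCs, where 52.5% of all genes were. Red blood cell markers summed to 262 to 404 FPKM in WT MGCs, 30.6 to 291 FPKM in Sphk1/2gc−/− MGCs, 4.37 to 26.8 FPKM in WT cumulus cells and 0.30 to 1.78 FPKM in the labelled knockouts. Leukocyte markers summed to 135 to 211, 12.3 to 52.9, 3.87 to 20.4 and 2.34 to 4.86 FPKM in the same order. By mean, most of the WT sums was S100a8 and S100a9, at 44.8 and 114 FPKM in WT MGCs and 7.44 and 13.8 FPKM in knockout MGCs. Cd68, Adgre1 and Csf1r had higher means in the knockout of both cell types (Adgre1 1.71 and 3.37 FPKM in MGCs), and the rest were mixed. The sums therefore do not describe leukocytes as a class. Theca cell markers summed to 25.8 to 57.6 FPKM in WT cumulus cells and 10.4 to 13.1 FPKM in the labelled knockouts, where 2 of 3 tested were lower, beside 12.7% of all genes. Endothelial markers summed to under 1 FPKM in all cumulus libraries. In cumulus cells 4 of 6 tested mural granulosa markers were lower in the labelled knockouts, among them Cyp19a1 (−2.38) and Cyp11a1 (−2.26). So were 3 of 6 granulosa markers, among them Nr5a2 (−1.50), where 12.7% of all genes were lower. Of the cumulus markers 3 of 7 were higher, Ptx3 (1.73), Tnfaip6 (1.58) and the member Slc38a3, where 9.66% of all genes were. The part of these markers in the members' differences was not tested.

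Last, the genes whose pattern over the 12 libraries was closest to that of Slc7a11, Gpt2 or Slc38a3 were sought among 6716 genes that reach 5 FPKM on average. For Slc7a11 these were Nfkbiz (Pearson r = 0.978 of log2(FPKM + 1)), Tnfaip6 (0.953) and Fam102b (0.952), for Gpt2 Socs3 (0.982), Metrnl (0.977) and Brwd1 (0.977), and for Slc38a3 F11r (0.989), Anxa2 (0.987) and Dnajc7 (0.984). The points are the same 12 libraries and fall into 2 cell types, so that the values describe likeness of pattern and nothing more.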

How the data were processed

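RNA-seq was performed on 12 libraries, 3 of each genotype and cell type, grouped by their labels. The authors deposited FPKM values, 1 table per cell type, of 29101 (MGCs) and 33137 (cumulus cells) genes. The submitters' processing notes name HISAT2 and GRCm38, and the counting tool is not given in the sources used here. Gene names, exon lengths and GC content came from GENCODE M21, which lacks 64 and 66 of the identifiers.

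Within a cell type, limma 3.58.1 (R 4.3.3, variance trend) compared log2(FPKM + 1) between genotypes, without a replicate block. A gene was tested if either genotype averaged 0.5 FPKM or more. The pseudocount of 1 understates changes of low transcripts. Cell types and the difference between genotype effects were tested in 1 model of 12 libraries and 4 group means. Both tables are scaled within each library, and exon length fitted both or neither for 99.6% of 26382 genes. Benjamini-Hochberg adjustment covered all genes tested, and SE is limma's moderated standard error. The code was tested on simulated data.

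The study adds a fold change of 2 or more to its threshold, which was an alternative. Members and gene lists were chosen with earlier results of these data known. From other lists, up to 4 genes per cell type are named, those with the largest change among those that pass and average 5 FPKM, and transporters that average 10 FPKM in a group. Gpt, Atf4, Gja1, Lamtor1, Lamtor2, Lamtor4, Lamtor5, the named leukocyte markers and the MGC values of Glul and Srxn1 were added after their values were seen. Reads were not recovered for Slc38a1, Slc38a2 and Slc38a4, whose values were not whole multiples.

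Libraries of the same number had correlations, after removal of group means, of 0.220, 0.158 and 0.224 in MGCs, which passes the limit of 0.1 set for a pairing, and of −0.148, −0.0511 and 0.115 in cumulus cells, which does not. Pairs of unlike number also reached 0.155 in MGCs, where the others were below 0, and 0.179 in cumulus cells. The limit alone therefore does not set libraries of the same number apart. The labels state no common animal. Alternatives were a pseudocount of 0.1, no filter, rescaling, the replicate block, leaving out libraries, limma-voom on recovered reads and GC correction. For 1 cumulus marker the values are not reported here.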

Additional observations from a re-analysis of the deposited data

Results flagged for a closer look

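The genotype difference of Slc38a3 differed between the cell types by a test of the difference itself. It was 0.91 in cumulus cells and −1.04 in MGCs on the log2 scale, a difference of 1.95 (SE 0.38, limma adjusted p = 0.0221 over 15869 genes). The transcript was higher in 3 of 3 knockout cumulus libraries and lower in 3 of 3 knockout MGC libraries than in any WT library of that cell type. The direction in cumulus cells rests on library labels under which Sphk1, from few reads, was not lower in the knockout. In MGCs Sphk1 of WT library 3 was within the knockout range.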

How the results depend on the processing

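The limits are these. With 3 libraries a group, and library 3 of the MGC knockout apart from its group, intervals in MGCs are wide. Depth gave 29 reads for Slc38a3 in its lowest library, so that low values depend on the pseudocount. Members counted as higher in cumulus cells were 4 in the reported analysis, 2 with a fold change of 2 or more required as well, 2 without the filter on low values, 3 with a pseudocount of 0.1, 4 in limma-voom, 5 after rescaling, 5 after GC correction and 2 to 4 without a single library. In MGCs the counts of 0 higher and 0 lower became 6 and 2 in libraries 1 and 2 alone, and 0 to 2 were higher without a single library. In Sphk1/2gc−/−, 8 members lower in cumulus cells than in MGCs became 5 after GC correction. For the difference of genotype effect between cell types, 1 member passed in the reported analysis and 0 to 1 without a single library. Of 146 recomputed counts of members, 133 stayed within 1.5 times the reported count. Many of these were counts of 0 that stayed 0, so the total says little about the counts above 0. The count of members higher in cumulus cells moved in 5 of 13 alternatives.

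Signs turned as follows. In cumulus cells Slc38a1 ranged from −0.16 to 0.14 and Slc7a6 from −0.062 to 0.10 without a single library. In MGCs Slc7a5 was −0.035 in libraries 1 and 2 and ranged from −0.13 to 0.41 without a single library. Between cell types in WT, Slc7a6 was 0.22 after GC correction and Slc38a4 ranged from −0.18 to 0.27 without a single library, and in Sphk1/2gc−/− Slc38a4 ranged from −0.044 to 0.18. The difference of genotype effect between cell types for Slc38a4 was −0.019 in the reported analysis, 0.022 after rescaling and 0.016 after GC correction. It was 0.081 in MGC libraries 1 and 2, and ranged from −0.20 to 0.26 without a single library. The same difference for Slc7a11 was −0.13 in MGC libraries 1 and 2 and ranged from −0.18 to 1.60 without a single library. The cause was not tested.

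With the replicate block, the pairing by number changed no member's call in MGCs, while the count of genes that passed there was 3 in place of 6. In cumulus cells, where the numbers do not pair the libraries, 3 members were higher with the block and Slc38a3 had an adjusted p of 0.0546. Over all cumulus genes 2725 passed, and 981 with the fold change, 1240 without the filter and 1997 with the block. In MGCs 6 genes passed, 1 after GC correction, 2 with block and GC correction, 0 in limma-voom, 278 without Sphk1/2gc−/− library 3 and 2486 in libraries 1 and 2.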
